A study of Homo sapiens with 6 samples.

Results

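The enzymes described here make serine from a glycolytic intermediate and pass its side-chain carbon into the folate pool. They were taken from the deposited table by gene symbol and comprise 10 of its 20325 genes: PHGDH, PSAT1, PSPH, SHMT1, SHMT2, MTHFD1, MTHFD2, MTHFD1L, MTHFD2L and ALDH1L2. RNA was sequenced from 6 libraries of SNU-668, an established gastric cancer line. All 6 came from cells that the labels call erastin-resistant, erastin being a blocker of cystine import that induces ferroptosis. Of these, 3 libraries came from cells that received an shRNA against ALKBH3, a demethylase of alkylated DNA and RNA (genotype label ALKBH3 knockdown), and 3 from cells that received a control shRNA (genotype label WT, treatment shRNA-NC). The vector, the shRNA sequence and whether the resistant cells are a single clone are not given here. Since nothing marks the 3 libraries of a group as separate cultures, their spread may be technical, and p-values refer to that spread alone.

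Serine is made in the cytosol. PHGDH oxidises the glycolytic intermediate 3-phosphoglycerate, PSAT1 transfers an amino group from glutamate, and PSPH removes the phosphate. SHMT enzymes then split serine into glycine and a carbon unit carried by tetrahydrofolate, and MTHFD enzymes oxidise that unit to formate. Cytosol and mitochondria have separate sets. SHMT1 and MTHFD1 are cytosolic, and SHMT2, MTHFD2, MTHFD2L, MTHFD1L and ALDH1L2 are mitochondrial. In many proliferating cells the mitochondrial set produces formate, which leaves the organelle and is used by MTHFD1 for purine and thymidylate synthesis. Several of these genes are known to be induced by ATF4, a transcription factor whose translation increases under amino acid shortage and other stresses.

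The targeted gene had 95, 106 and 68 reads in cells with the ALKBH3 shRNA, against 326, 351 and 334 reads in cells with the control shRNA. ALKBH3 was thus at 5.26 ± 0.729 CPM in the knockdown and 22.8 ± 0.201 CPM in controls (SD, n = 3 each), CPM being the usual count scaled to library depth, here with edgeR's TMM factors. Reads counted in protein-coding genes, the only genes listed, totalled 14244932 to 17880183 per library. Mitochondrially encoded genes took 3.53% to 4.65% of these reads in the knockdown and 3.87% to 4.41% in controls. Replicates all differed by more than sampling noise; the most similar were knockdown replicates 2 and 3, with a chi-square of 3.05 per degree of freedom. The epithelial markers differed widely in their reads over all 6 libraries. CDH1 had 0 reads, EPCAM 54, CLDN4 67, KRT19 114, MUC1 300, KRT8 1480 and KRT18 16418. These 7 markers summed to 212 to 224 CPM in the knockdown and 156 to 177 CPM in controls, mostly from KRT18. KRT8 and KRT18 were called higher among these, with log2 fold changes of 0.41 and 0.38. The mesenchymal filament VIM was at 3818 to 3907 CPM in the knockdown and 3649 to 3962 CPM in controls. The 6 fibroblast markers summed to 2134 to 2512 CPM in the knockdown and 2304 to 2744 CPM in controls, of which COL1A2 gave most, with DCN at 11 and LUM at 10 reads in all. COL1A1 had a log2 fold change of -0.38 (adjusted p = 0.0512 in edgeR's quasi-likelihood test), and DESeq2 and limma-voom each called 1 fibroblast marker lower. PDGFRB went the other way, with a log2 fold change of 0.25 (adjusted p = 0.0659 in edgeR's quasi-likelihood test), and COL1A2 had -0.11. The immune marker CD3E had 0 reads, and the 6 immune markers summed to 0.399 to 4.06 CPM in the knockdown and 0.406 to 1.77 CPM in controls. The 3 endothelial markers in the table summed to 2.03 to 2.59 CPM in the knockdown and 1.37 to 2.18 CPM in controls. The part of these markers in the results was not tested. In bulk RNA, fewer cells of a kind and less RNA per cell cannot be told apart.

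The promoter windows of 4 members are shown because these genes carry the main contrast: PSAT1, the member with the highest fold change; MTHFD1L, the one window with the element described next; and MTHFD2 with its close relative MTHFD2L, whose fold change differs. Each window runs from 250 bases before to 50 after the gene's start, 5′ to 3′ on the plus strand of RefSeq's GRCh38.p14. A RefSeq window was matched for 7 of the 10 members. The search covered both strands for TGATGNAA, the core of the C/EBP-ATF response element through which ATF4 acts, and for CCAAT, a common promoter box. Their letters do not overlap in these windows, and capitals mark them. The windows lie at chr9:78296875-78297174 (PSAT1), chr2:74198365-74198664 (MTHFD2), chr6:150866236-150866535 (MTHFD1L, the first of 4 listed starts) and chr4:74157868-74158167 (MTHFD2L, the first of 2 listed starts).
PSAT1: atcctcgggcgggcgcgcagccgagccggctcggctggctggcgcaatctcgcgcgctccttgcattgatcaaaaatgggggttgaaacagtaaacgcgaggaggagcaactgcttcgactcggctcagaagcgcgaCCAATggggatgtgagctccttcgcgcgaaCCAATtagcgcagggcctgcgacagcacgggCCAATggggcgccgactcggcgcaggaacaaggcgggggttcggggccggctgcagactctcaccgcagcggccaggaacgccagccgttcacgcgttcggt
MTHFD2: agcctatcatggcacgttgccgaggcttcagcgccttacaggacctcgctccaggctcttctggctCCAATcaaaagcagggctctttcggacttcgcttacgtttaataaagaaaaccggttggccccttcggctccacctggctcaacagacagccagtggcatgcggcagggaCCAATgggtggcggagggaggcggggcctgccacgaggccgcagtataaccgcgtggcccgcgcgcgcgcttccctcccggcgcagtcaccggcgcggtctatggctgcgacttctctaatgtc
MTHFD1L: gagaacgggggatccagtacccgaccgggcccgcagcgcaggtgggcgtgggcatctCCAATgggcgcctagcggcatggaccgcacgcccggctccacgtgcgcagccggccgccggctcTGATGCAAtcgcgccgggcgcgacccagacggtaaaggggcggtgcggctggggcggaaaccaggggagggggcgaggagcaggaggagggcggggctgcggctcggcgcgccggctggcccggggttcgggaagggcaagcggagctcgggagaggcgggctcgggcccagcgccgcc
MTHFD2L: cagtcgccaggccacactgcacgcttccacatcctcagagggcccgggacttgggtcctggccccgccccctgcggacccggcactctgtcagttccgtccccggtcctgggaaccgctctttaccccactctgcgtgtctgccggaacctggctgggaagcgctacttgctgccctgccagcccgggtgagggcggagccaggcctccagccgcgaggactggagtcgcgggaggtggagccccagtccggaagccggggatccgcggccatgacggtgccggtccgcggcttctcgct
The TGATGNAA core was found in MTHFD1L, 129 bases before the start and in 3 of its 4 listed windows, and in none of the first windows of the other 6 members with one. It occurs in 3.62% of all 35116 promoter windows. CCAAT stood 3 times in PSAT1, at 113, 83 and 52 bases before the start, and 2 times in MTHFD2, at 184 and 74 bases. It stood once in MTHFD1L, 193 bases before the start, and once in PHGDH, 71 bases before it. SHMT1 and MTHFD1, which were not called, had 2 matches each, so the number of matches did not follow the calls. CCAAT was not in the MTHFD2L window, and 34.6% of all windows hold it on either strand. A match describes letters and is not evidence of a bound site.

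Of the 10 members, 9 had enough reads to be tested, and 5 of these rose in the knockdown while 0 fell. They were the cytosolic PHGDH and PSAT1 and the mitochondrial SHMT2, MTHFD2 and MTHFD1L. PSPH, SHMT1, MTHFD1 and MTHFD2L did not pass, and ALDH1L2 was close to undetected. Across all 12305 genes tested, 8.08% were called, 3.96% higher and 4.12% lower (edgeR's quasi-likelihood test, Benjamini-Hochberg adjusted p under 0.05), or 610 higher and 417 lower in place of 487 and 507 when library totals were the only scaling. The median log2 fold change of the 9 tested members was 0.73, against 0.01 over all genes tested. The members were chosen with results of these data known, so these counts describe them and do not test them as a group.

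**Figure D1:**
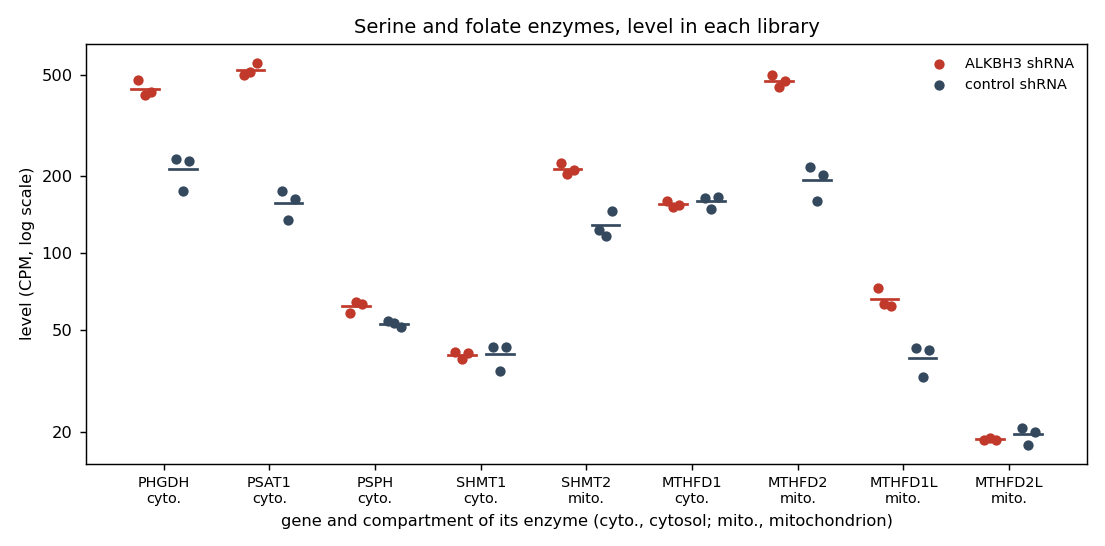
Level of each tested enzyme (y axis, CPM on a log scale) in every library, knockdown left and control right of each pair; points are libraries and lines are group means. PHGDH, PSAT1, PSPH, SHMT2, MTHFD2 and MTHFD1L have all 3 knockdown libraries above all 3 controls, and SHMT1, MTHFD1 and MTHFD2L overlap.

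The first enzyme of the pathway was PHGDH (ENSG00000092621, hg19 chromosome 1 from 120202421 to 120286838, plus strand). PHGDH was at 477, 416 and 428 CPM in the knockdown libraries, against 234, 175 and 230 CPM in the control libraries. Every knockdown library lay above every control, as was so for 13.3% of all genes tested (26.6% did not overlap in either direction), and control replicate 2 was the lowest of its group. The means were 441 ± 32.2 CPM in the knockdown and 213 ± 32.9 CPM in controls (SD, n = 3 each). The log2 fold change was 1.05 with an SE of 0.0975, or 2.07-fold (adjusted p = 8.31e-08 in edgeR's quasi-likelihood test).

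The next enzyme, PSAT1 (ENSG00000135069, hg19 chromosome 9 from 80912059 to 80945009, plus strand), had the highest fold change of the 10 and ranked 15 of 12305 genes. It was at 497, 513 and 556 CPM in the knockdown libraries, against 175, 135 and 163 CPM in the controls, again without overlap. The 3.31-fold rise had a 95% interval of 1.54 to 1.92 on the log2 scale (adjusted p = 3.96e-12 in edgeR's quasi-likelihood test). Intervals here are those of a single gene, unadjusted. GENCODE 29 lists 4 pseudogenes named after PSAT1, and the handling of reads shared with such copies is not stated.

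The last enzyme of serine synthesis, PSPH (ENSG00000146733, hg19 chromosome 7 from 56078744 to 56119297, minus strand), did not pass. PSPH was at 58.5, 64.4 and 63.5 CPM in the knockdown libraries, against 54.3, 53.2 and 51.4 CPM in the control libraries. The knockdown libraries all lay above the controls, but by little. The log2 fold change was 0.23 with a 95% interval of 0.06 to 0.40 (adjusted p = 0.0966 in edgeR's quasi-likelihood test), and the adjusted p stayed between 0.0803 and 0.315 when any library was left out. PSPH has 1 pseudogene named after it, PSPHP1. The interval of PSPH lies below that of PHGDH (0.85 to 1.25), although the difference between these genes was not tested.

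SHMT2, the mitochondrial serine hydroxymethyltransferase (ENSG00000182199, hg19 chromosome 12 from 57623110 to 57628718, plus strand), rose. Its levels were 225, 205 and 212 CPM in the knockdown libraries, against 123, 117 and 147 CPM in the controls. The groups did not overlap, and control replicate 3 was the highest of the controls. The log2 change of SHMT2 was 0.73 (SE 0.086), or 1.66-fold (adjusted p = 1.95e-06 in edgeR's quasi-likelihood test). NDUFA4L2, which overlaps SHMT2 on the opposite strand, had 167 reads in all, against 16568 for SHMT2.

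SHMT1, its cytosolic counterpart (ENSG00000176974, hg19 chromosome 17 from 18231187 to 18266856, minus strand), was at 41.2, 38.5 and 40.6 CPM in the knockdown libraries, against 43.1, 34.7 and 43.0 CPM in the controls. All knockdown values lay inside the range of the controls. The log2 fold change was -0.01 with a 95% interval of -0.21 to 0.20 (adjusted p = 0.982 in edgeR's quasi-likelihood test), and its sign changed with the scaling, being 0.02 with library totals alone.

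MTHFD2 (ENSG00000065911, hg19 chromosome 2 from 74425689 to 74444692, plus strand) is a mitochondrial methylenetetrahydrofolate dehydrogenase and cyclohydrolase, abundant in many tumours and low in most adult tissues. MTHFD2 was at 497, 446 and 474 CPM in the knockdown libraries, against 217, 160 and 203 CPM in the control libraries. The groups were far apart, and control replicate 2 was again the lowest. The means were 472 ± 25.6 CPM in the knockdown and 193 ± 29.4 CPM in controls (SD, n = 3 each). The log2 change of MTHFD2 was 1.29 (SE 0.0953), or 2.44-fold, which ranked 37 of 12305 (adjusted p = 1.16e-09 in edgeR's quasi-likelihood test). GENCODE 29 lists 7 pseudogenes named after MTHFD2, more than for any other of the 10.

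MTHFD2L (ENSG00000163738, hg19 chromosome 4 from 74979891 to 75168816, plus strand), the other mitochondrial enzyme of the same step, was low in both groups. Its levels were 18.6, 18.8 and 18.6 CPM in the knockdown libraries, against 20.6, 17.8 and 20 CPM in the controls. The knockdown libraries lay within the range of the controls. MTHFD2L had a log2 fold change of -0.06 with a 95% interval of -0.29 to 0.17 (adjusted p = 0.811 in edgeR's quasi-likelihood test).

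MTHFD1L (ENSG00000120254, hg19 chromosome 6 from 151186685 to 151423023, plus strand), the mitochondrial synthetase that releases formate, rose. Levels were 73.2, 63.5 and 62.3 CPM in the knockdown libraries, against 42.7, 32.8 and 41.6 CPM in the controls. All 3 knockdown libraries were above the controls, with knockdown replicate 1 the highest. The log2 change of MTHFD1L was 0.77 (SE 0.101), or 1.70-fold (adjusted p = 1.14e-05 in edgeR's quasi-likelihood test). This gene holds the TGATGCAA in the window printed above.

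MTHFD1 (ENSG00000100714, hg19 chromosome 14 from 64854749 to 64926722, plus strand) combines dehydrogenase, cyclohydrolase and synthetase activities in the cytosol. It was at 160, 152 and 155 CPM in the knockdown libraries, against 165, 149 and 166 CPM in the controls. The groups overlapped fully. MTHFD1 had a log2 fold change of -0.04 with a 95% interval of -0.20 to 0.12 (adjusted p = 0.805 in edgeR's quasi-likelihood test). ZBTB25, which overlaps MTHFD1 on the opposite strand, had 1805 reads in all, against 15001 for MTHFD1, and the strand setting of the counting is not stated.

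ALDH1L2, the mitochondrial dehydrogenase of 10-formyltetrahydrofolate, had 2, 2 and 0 reads in the knockdown libraries and 0 reads in each control library. The limit that a count of 0 allows (3 reads, counting error only) was 0.168 to 0.201 CPM in the knockdown libraries and 0.194 to 0.211 CPM in the controls, and no library exceeded it. No fold is given. Its cytosolic counterpart ALDH1L1 had 0, 7 and 2 reads in the knockdown libraries and 0, 2 and 3 in the controls, so this pair could not be compared at this depth.

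**Figure D2:**
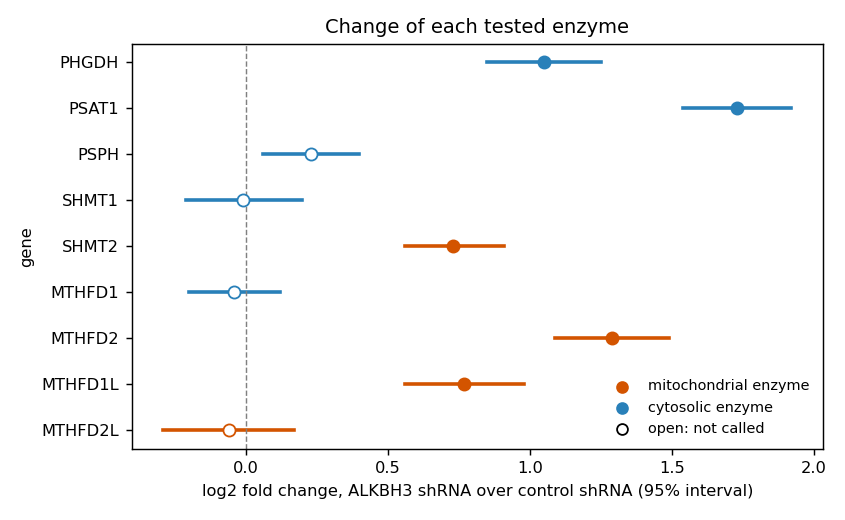
Log2 fold change, knockdown over control, of the 9 tested enzymes (x axis, with 95% intervals), coloured by compartment; filled points were called and open points were not. The mitochondrial SHMT2, MTHFD2 and MTHFD1L lie between 0.73 and 1.29, while the cytosolic SHMT1 and MTHFD1 and the mitochondrial MTHFD2L lie between -0.06 and -0.01 (SHMT1 at 0.02 with library totals alone).

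The compartments were compared by the ratio of isoenzymes within each library, in which scaling and gene length cancel between groups. The log2 ratio of SHMT2 to SHMT1 was 2.44, 2.40 and 2.37 in knockdown replicates 1, 2 and 3, against 1.5, 1.73 and 1.76 in the control libraries. Every knockdown library had a higher ratio than every control, with a difference of the means of 0.74. The log2 ratio of MTHFD2 to MTHFD1 was 1.63, 1.55 and 1.61 in knockdown replicates 1, 2 and 3, against 0.39, 0.10 and 0.28 in the controls, a difference of 1.34. The log2 ratio of MTHFD1L to MTHFD1 was -1.12, -1.26 and -1.31 in knockdown replicates 1, 2 and 3, against -1.94, -2.17 and -1.99 in the controls, a difference of 0.81. In all 3 pairs the mitochondrial transcript gained on the cytosolic one in each knockdown library, and the difference was at least 5 times the larger SD of the pair's groups. The exact two-sided permutation test gave p = 0.1 for each, the smallest that 3 against 3 allows, so these differences cannot pass a threshold of 0.05 in this design. The pairs of MTHFD2 and MTHFD1L share MTHFD1, so they are not separate comparisons. As SHMT1 and MTHFD1 changed little, the differences are close to the log2 fold changes of SHMT2, MTHFD2 and MTHFD1L alone (0.73, 1.29 and 0.77).

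MTHFD2L did not follow that direction. The log2 ratio of MTHFD2L to MTHFD1 was -3.07, -2.98 and -3.03 in knockdown replicates 1, 2 and 3, against -2.97, -3.03 and -3.03 in the controls, and the groups overlapped (difference -0.02, exact two-sided permutation test, p = 0.7). Within the mitochondrial pair, the log2 ratio of MTHFD2 to MTHFD2L was 4.71, 4.53 and 4.63 in knockdown replicates 1, 2 and 3, against 3.36, 3.13 and 3.31 in the controls. That difference of 1.35 was about as large as that of MTHFD2 to MTHFD1, again with the smallest possible p = 0.1 in the exact two-sided permutation test. SHMT2, MTHFD2 and MTHFD1L thus differed from the mitochondrial MTHFD2L in being called higher, and SHMT1 and MTHFD1 shared with MTHFD2L an interval that includes 0. In all, 5 pairs were compared.

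**Figure D3:**
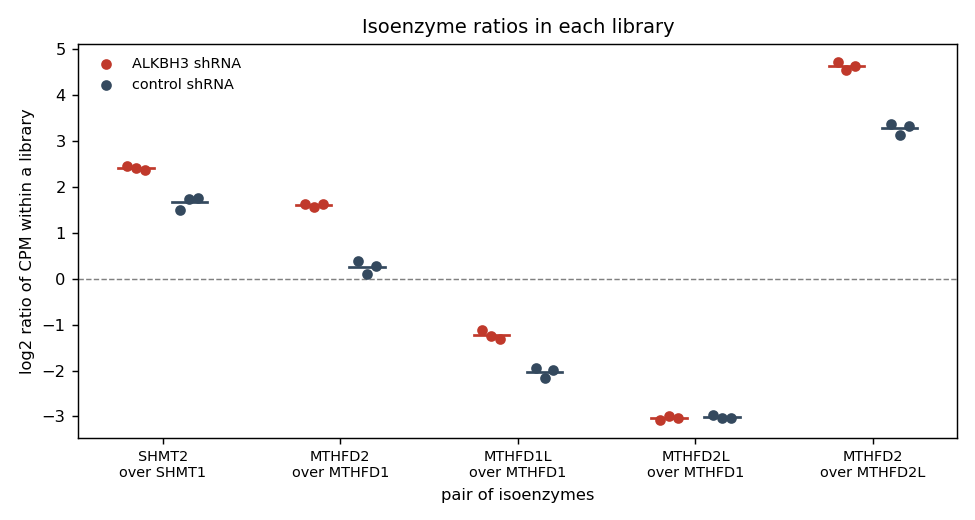
Log2 ratio of the CPM of isoenzyme pairs within each library (y axis), knockdown left and control right; points are libraries and lines are means. The ratios of SHMT2 to SHMT1, MTHFD2 to MTHFD1, MTHFD1L to MTHFD1 and MTHFD2 to MTHFD2L are higher in all 3 knockdown libraries, and that of MTHFD2L to MTHFD1 overlaps.

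Levels of different genes were compared per kilobase of the longest principal protein-coding transcript in GENCODE 29 (GRCh38). In the knockdown the order was PSAT1 at 238 ± 14, PHGDH at 170 ± 12.5, MTHFD2 at 106 ± 5.75 and SHMT2 at 84.4 ± 3.97 CPM per kilobase (SD, n = 3). MTHFD1 followed at 49.7 ± 1.19, PSPH at 28.5 ± 1.48, MTHFD1L at 18.4 ± 1.67, SHMT1 at 16.3 ± 0.568 and MTHFD2L at 8.12 ± 0.0598 CPM per kilobase. In controls PHGDH was at 82.4 ± 12.7 and PSAT1 at 72.0 ± 9.30 CPM per kilobase, intervals of 1 SD that overlap. MTHFD1 at 51.1 ± 3.02 and SHMT2 at 50.7 ± 6.36 CPM per kilobase lay within each other's spread. MTHFD2 had a lower mean, at 43.4 ± 6.60 CPM per kilobase, but its interval of 1 SD overlapped those of MTHFD1 and SHMT2. The order depended on the length. Per kilobase of the union of all annotated exons, the knockdown order was PSAT1 at 238, MTHFD2 at 97.0, PHGDH at 47.8, SHMT2 at 44.2, PSPH at 22.5 and MTHFD1 at 16.6 CPM, so that PHGDH and MTHFD2, and MTHFD1 and PSPH, changed places. On that length PSAT1 was at 72.0 ± 9.30 and PHGDH at 23.1 ± 3.57 CPM per kilobase in controls, far apart. The ratio of MTHFD2 to MTHFD1 per length averaged 2.13 in the knockdown and 0.845 in controls. It was 5.83 in the knockdown and 2.31 in controls on the union length, so which of these transcripts was the more abundant in controls depended on the length used.

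The spread inside a group was shared by most members. Control replicate 2 was the lowest control for 8 of the 9 tested members, PSPH being the exception. Knockdown replicate 1 was the highest of its group for 6 of 9. Such counts were not made over all genes, so whether this spread is particular to the members was not tested. In control replicate 2 the log2 level lay below the control mean by 0.27 for PHGDH, 0.21 for PSAT1, 0.26 for MTHFD2 and 0.24 for MTHFD1L, and by 0.21 for SHMT1, which was not called. ATF4 mRNA was at 563, 515 and 509 CPM in the knockdown libraries, against 284, 247 and 298 CPM in the controls, with control replicate 2 again the lowest. Without control replicate 2 the log2 fold change was 0.93 for PHGDH, 1.63 for PSAT1, 0.67 for SHMT2, 1.17 for MTHFD2 and 0.66 for MTHFD1L, and all 5 remained called (edgeR's quasi-likelihood test).

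Among 10426 genes that averaged 5 CPM or more, those whose log2 level followed PHGDH most closely over the 6 libraries were PCK2 (Pearson r = 0.9990), CBS (0.9989), ADCK3 (0.9976), YARS (0.9973) and CARS (0.9970). These libraries form 2 groups that differ in PHGDH, a difference the coefficients include. PCK2, a mitochondrial enzyme that makes phosphoenolpyruvate, was at 129, 111 and 113 CPM in the knockdown libraries, against 45.2, 27.0 and 43.7 CPM in the controls. CBS, which condenses serine with homocysteine, was at 214, 178 and 178 CPM in the knockdown libraries, against 90.8, 67.4 and 91.0 CPM in the controls. In both genes knockdown replicate 1 was the highest and control replicate 2 the lowest library, as for PHGDH. The tRNA synthetase genes YARS and CARS and ADCK3, a kinase-like protein of coenzyme Q synthesis, rose by 0.75, 1.00 and 0.46 on the log2 scale.

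Among genes listed for serine transport and use, transporters made up most of the calls. Of 20 tested genes in this list, which also holds a carrier of glycine, 6 rose and 1 fell. Over all genes tested, 3.96% were called higher and 4.12% lower. The median log2 fold change of the list was 0.04. SLC6A9, a glycine transporter, was at 39.4 ± 4.02 CPM in the knockdown and 13.6 ± 0.598 CPM in controls (SD, n = 3 each; log2 fold change 1.54, adjusted p = 5.59e-10 in edgeR's quasi-likelihood test). SLC1A4, an exchanger of serine and other neutral amino acids, was at 39.9 ± 2.39 CPM in the knockdown and 14.3 ± 2.17 CPM in controls. SLC1A5, a glutamine and neutral amino acid exchanger, rose 1.87-fold. The other 3 that rose were CBS, with a log2 fold change of 1.19, and SLC38A1 and SLC38A2, named after their values were seen, with 0.81 and 0.37. The gene of this list that fell, SFXN1, is a mitochondrial serine transporter and was also named after its value was seen. It had a log2 fold change of -0.41 (adjusted p = 0.00195 in edgeR's quasi-likelihood test). The 1 gene lower became 2 without control replicate 3, and 3 with the replicate number as a block or with no filter on low counts. The 6 genes higher became 7 without knockdown replicate 1 and 5 without knockdown replicate 3. The genes that use serine for lipids did not pass, with log2 fold changes of -0.04 for SPTLC1, 0.03 for SPTLC2, -0.37 for SPTLC3, -0.16 for PTDSS1 and -0.03 for PTDSS2.

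The genes listed for the rest of folate metabolism did not pass the test. Of 16 tested genes for folate uptake, reduction and other folate enzymes, 0 were called in edgeR's quasi-likelihood test, against 8.08% over all genes. Their median log2 fold change was 0.01. An unadjusted p under 0.05 was found for 3 of them, and DESeq2 and limma-voom also called 0. Thymidylate synthase TYMS had a log2 fold change of -0.07, methionine synthase MTR -0.10, the reduced folate carrier SLC19A1 -0.04 and the mitochondrial folate carrier SLC25A32 -0.06. Of 8 tested genes of glycine cleavage and glycine use, 0 were called in edgeR's quasi-likelihood test, 1 had an unadjusted p under 0.05, and DESeq2 and limma-voom called 0. In that list 1 gene was called higher without control replicate 2, without knockdown replicate 1 and with no filter on low counts. In lists of 16 and 8 genes, 0 calls are near the share called over all genes. GLDC, the decarboxylase of the cleavage system, had 40 reads in all and was not tested.

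The carbon carried by folate is used in purine and thymidylate synthesis, although most enzymes of these pathways handle no folate themselves. Of 16 tested genes of both pathways, 0 rose and 1 fell, a share near the 8.08% called over all genes, with a median log2 fold change of -0.07. That gene was TK1, the thymidine kinase of nucleotide salvage, at 140 ± 6.31 CPM in the knockdown and 176 ± 13.5 CPM in controls (SD, n = 3 each), which lost its call without knockdown replicate 2 or 3 (adjusted p = 0.0571 and 0.0524 in edgeR's quasi-likelihood test). GART and ATIC, the formyl-transfer enzymes of purine synthesis, had log2 fold changes of 0.21 and 0.02. Without control replicate 1 the list had 1 gene called higher, and DESeq2 called 2 lower. An unadjusted p under 0.05 was found for 7 of the 16 (edgeR's quasi-likelihood test). In 5 of the 16 every knockdown library lay below every control, and in 1 above, against 13.3% of all genes tested in each direction.

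Genes of lower glycolysis, which supply and compete for 3-phosphoglycerate, fell in part. Of 8 tested, 3 fell and 1 rose, with a median log2 fold change of -0.27. PGK1, which makes 3-phosphoglycerate, was at 1415, 1746 and 1744 CPM in the knockdown libraries, against 2132, 2353 and 2294 CPM in the controls. PGAM1, which converts 3-phosphoglycerate onward, was at 313 ± 36.1 CPM in the knockdown and 429 ± 17.3 CPM in controls (SD, n = 3 each; log2 fold change -0.45, adjusted p = 0.00118 in edgeR's quasi-likelihood test). The enolase ENO2 fell to 123 ± 9.58 CPM in the knockdown, against 201 ± 26.4 CPM in controls. ENO3, named after its value was seen, had a log2 fold change of 0.60 and lost its call when replicate 1 or 3 of either group was left out, leaving 0 called higher in the list (edgeR's quasi-likelihood test), and 0 were also called higher by DESeq2 and limma-voom. DESeq2 called 5 of the list lower, as did the fit with the replicate number as a block. In these genes knockdown replicate 1 was the lowest library for PGK1, PGAM1 and ENO2.

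Other sources of NADPH, which folate oxidation also yields, gave 1 call of 9 tested genes, with a median log2 fold change of 0.14. A single call in a list of this size is near the 8.08% called over all genes. IDH1, the cytosolic isocitrate dehydrogenase, was at 156 ± 4.98 CPM in the knockdown and 130 ± 11.4 CPM in controls (SD, n = 3 each; adjusted p = 0.0437 in edgeR's quasi-likelihood test), a call lost when replicate 2 or 3 of either group was left out. Of 8 tested genes of ATF4 and its partners, 5 rose and 0 fell, with a median log2 fold change of 0.77. ATF4 itself was at 529 ± 29.6 CPM in the knockdown and 276 ± 26.3 CPM in controls (SD, n = 3 each). Its partner CEBPG rose 1.89-fold, the ATF4-induced pseudokinase TRIB3 3.03-fold and the stress protein NUPR1 3.97-fold. DDIT3, a stress-induced dimerisation partner named after its value was seen, had a log2 fold change of 0.62. CEBPB, ATF5 and ATF3 did not pass, at 0.09, 0.21 and 0.18.

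**Figure D4:**
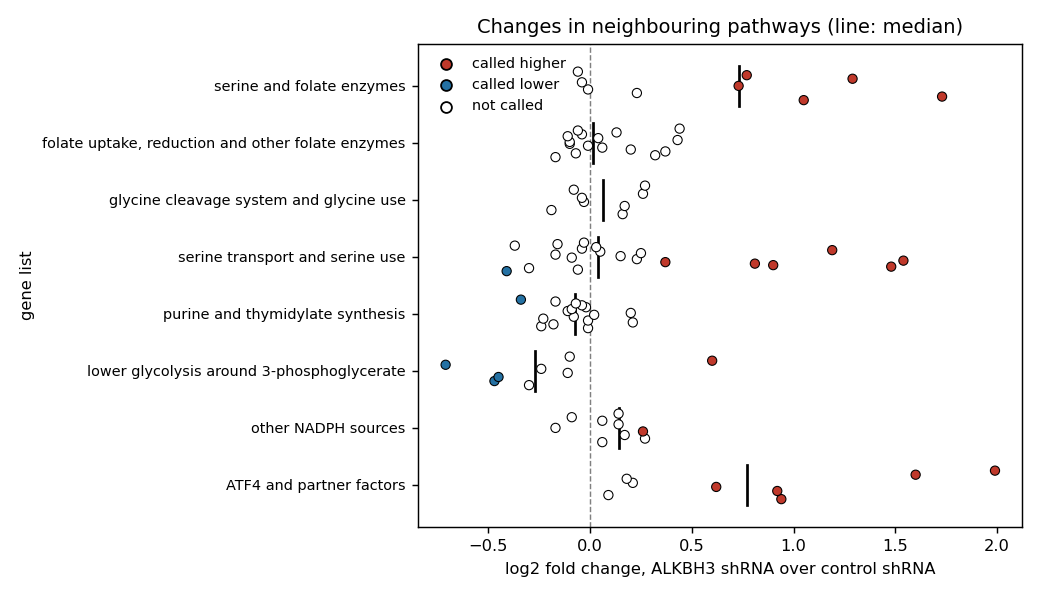
Log2 fold change, knockdown over control (x axis), of every tested gene in the enzyme set and the 7 neighbouring lists (y axis); points are genes, red called higher, blue called lower, white not called, and black lines are medians. The medians are 0.73 for the serine and folate enzymes and 0.77 for ATF4 and its partners, against -0.27 for lower glycolysis and values from -0.07 to 0.14 for the other lists.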

How the data were processed

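The values used are the authors' raw counts, per the file headers, for 20325 protein-coding genes in each of the 6 libraries. A further 6 columns of counts normalized by DESeq2 and 2 lines without values were not used here. The build is hg19, and the tools named by the submitters' processing notes are STAR 2.7.9a, fastp 0.20.0, DESeq2 and featureCounts 2.0. Their settings and the annotation release are not given here. Per the labels' protocols, libraries were poly(A)-enriched and strand-specific (dUTP).

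Genes were filtered with edgeR's filterByExpr, which left 12305 and removed 0.0556% of the counts. Counts were scaled by TMM and tested with edgeR 4.0.16 in R 4.3.3 (glmQLFit with robust estimation, glmQLFTest, group as the only term), with Benjamini-Hochberg adjustment over all tested genes and a call at an adjusted p under 0.05. The SE was taken as the size of the log2 fold change divided by the root of its F statistic. The 95% intervals use the test's total degrees of freedom, which add those borrowed across genes to the residual ones. Isoenzyme ratios were log2(CPM + 0.5) differences within a library, compared by exact permutation (scipy 1.17.1). The code was tested on simulated data. Alternatives were other scalings, filters and tools (DESeq2 1.42.0, limma 3.58.1 voom), the replicate number as a block and leaving out each library. Both gene lengths used for levels (principal transcript and union of exons) were chosen after seeing the data.

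The members and the gene lists were chosen with earlier results of these data known. Named genes are all members, ALKBH3, ATF4, up to 3 called genes per list with the smallest adjusted p, and the 5 genes most like PHGDH. Others are marked as chosen after their values were seen, or serve as examples that did not pass.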

Additional observations from a re-analysis of the deposited data

How the results depend on the processing

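The 5 calls among the members held under all 13 alternative fits, and 0 members were called lower in any of them (edgeR, limma-voom and DESeq2). SHMT1, which was not called, changed sign, with log2 fold changes of 0.02 with library totals alone, 0.00 with limma-voom, and -0.10 to 0.05 when a library was left out. Over all genes, leaving out 1 library gave 312 to 433 calls higher and 285 to 423 lower, with the lowest counts without knockdown replicate 2 or 3. When a library was left out, the isoenzyme difference was 0.65 to 0.79 for SHMT2 over SHMT1, 1.26 to 1.40 for MTHFD2 over MTHFD1, 0.74 to 0.85 for MTHFD1L over MTHFD1, 1.29 to 1.40 for MTHFD2 over MTHFD2L, and -0.04 to 0.00 for MTHFD2L over MTHFD1. With the replicate number as a block the calls were 587 higher and 647 lower and no call of a member changed. Deviations of same-numbered libraries correlated at 0.0579, 0.107 and -0.0556, and not every library correlated best with its own number, so the numbers were not taken as pairs. With 3 libraries a group, a small difference such as that of PSPH can fail to pass after adjustment over all genes. That failure does not show that the difference is absent.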
